A study of Mus musculus with 3 samples.

Results

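The interleukin-6 family was described here by 9 genes: the ligands Il6, Osm, Lif and Il11, the receptor chains Il6ra, Il6st, Osmr and Lifr, and the transcription factor Stat3. They were taken by symbol from the platform annotation, out of 19938 genes in all, and each of the 9 had exactly 1 probe set with no other gene's symbol on it. Transcripts were measured on 3 Affymetrix arrays, 1 per group, and every array carried RNA pooled from 3 samples. All groups were adherent peritoneal macrophages of male Angptl4-/- mice (C57Bl/6J), drawn into the cavity with 4% thioglycollate, a sterile irritant, so cells without ANGPTL4 of their own were the background of every group and no wild-type array was analysed here. The PBS group was given phosphate-buffered saline for 6 h. The intralipid group was given a triglyceride emulsion at 0.5 mM triglyceride for 6 h. The intralipid plus ANGPTL4 group was given the same emulsion after 1.5 h with 2.5 µg/mL recombinant mouse ANGPTL4, an inhibitor of lipoprotein lipase. Angptl4 itself read 4.92 on the log2 scale on every array, but where its probes lie relative to the deletion is not known, so this checks nothing.

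Cytokines of the interleukin-6 family share the signalling chain gp130, the product of Il6st. Interleukin-6 first binds its own receptor chain (Il6ra), leukaemia inhibitory factor (Lif) uses the LIF receptor (Lifr), and oncostatin M (Osm) uses the oncostatin M receptor (Osmr), each in a complex with gp130. Kinases of the JAK family bound to gp130 then phosphorylate STAT3, which enters the nucleus. Activated macrophages are known sources of interleukin-6 and oncostatin M.

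Levels are deposited log2 values, and a difference of 1 between arrays is 2-fold. As a floor for expression, each array's median over the probe sets that carry a gene name was used, which came to 4.98 for PBS, 4.97 for intralipid and 4.97 for the array with ANGPTL4. A gene was counted as 2-fold apart where the log2 difference was at least 1 in size and the higher array reached its floor. There were no replicate arrays, so no test was run, no error can be given, and every difference describes this set of arrays alone. Levels are not compared between genes, because probe sets differ in their response. As a scale for the differences, the robust SD (from the central 68% of genes past the floor) was 0.20 for intralipid against PBS, 0.23 for intralipid plus ANGPTL4 against intralipid and 0.10 for intralipid plus ANGPTL4 against PBS. This spread runs over genes and holds no spread between cultures. It is also narrowed by differences of exactly 0, which made up 32.1%, 30.6% and 40.2% of the genes in these comparisons, in the same order. Of the 9 members, 7 reached the floor on at least 1 array, and Il11 and Lifr did not.

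Transcripts of 3 of the 4 ligands were higher on the intralipid array than on either other array. Osm, which encodes oncostatin M, stood at 5.67 under PBS, 9.71 under intralipid and 5.62 with ANGPTL4 added. It lay past the floor on all 3 arrays, and the intralipid array stood alone above a pair of near-equal values. The difference was 4.05 (16.5-fold) for intralipid over PBS and -4.09 for intralipid plus ANGPTL4 over intralipid. With ANGPTL4 the level was -0.05 from that of PBS, inside the robust SD.

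Il6, which encodes interleukin-6, stood at 2.48 with PBS, 6.24 with intralipid and 2.54 once ANGPTL4 was added. Only the intralipid array reached the floor. The value on the PBS array was also the exact value of 436 other probe sets there, so the deposited difference of 3.77 (13.6-fold) starts from a level at which probe sets are not told apart. Against the floor itself Il6 was 2.40-fold higher with intralipid than with PBS, and 2.41-fold higher with intralipid than with intralipid plus ANGPTL4.

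The log2 values of Lif were 3.38 (PBS), 5.08 (intralipid) and 3.74 (intralipid plus ANGPTL4). Its differences were 1.70 (3.26-fold) for intralipid over PBS and -1.35 for intralipid plus ANGPTL4 over intralipid. The intralipid value lay just past the floor and was shared exactly by 67 other probe sets on that array. Against the floor the differences came to 1.08-fold for both comparisons, so the Lif call rests on values near background. Il11, which encodes a cytokine best known from stromal cells, had a log2 value of 4.27 on each array, below the floor. The same 3 values were held by 133 other probe sets, so a difference of 0 for Il11 is no measurement of an unaltered level.

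**Figure D1:**
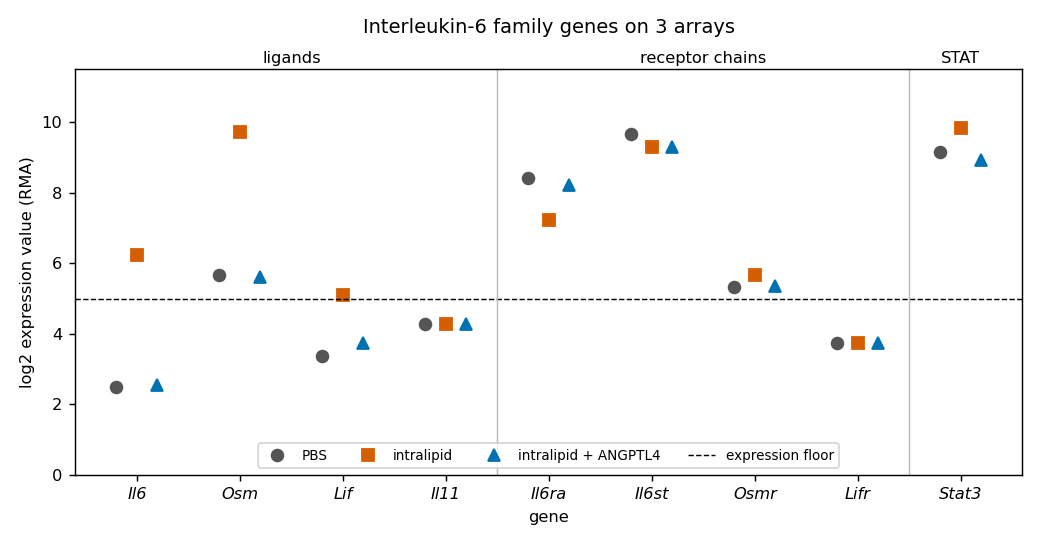
Log2 expression values (vertical axis) of the 9 genes (horizontal axis) on the PBS (circles), intralipid (squares) and intralipid plus ANGPTL4 (triangles) arrays, 1 value per array, with the mean of the 3 arrays' expression floors as a dashed line. Osm, Il6 and Lif are highest with intralipid, Il6ra is lowest with intralipid, and Il11 and Lifr lie below the floor with equal values.

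Promoter windows of 3 ligands and 2 receptor chains are shown. RefSeq windows of build GRCm38.p6, from 250 bases before to 50 bases after a gene's start, matched 8 of the 9 members with 10 windows, and Osm had no entry. The windows were searched on both strands for AP-1 (TGANTCA), the core of the cyclic AMP response element (TGACGT), C/EBP (TTNNGNAA), STAT (TTCNNNGAA) and the NF-kB consensus. Capitals mark every match, and no matches overlapped in these windows. The windows of Il6, at chr5:30012864-30013163 on the plus strand, Lif, at chr11:4257318-4257617 on the plus strand, Il11, at chr7:4778092-4778391 on the minus strand, and Osmr, at chr15:6874264-6874563 on the minus strand, are given because each holds an AP-1 match. That of Il6ra, at chr3:89913147-89913446 on the minus strand, is given because this receptor was lower with intralipid.
Il6: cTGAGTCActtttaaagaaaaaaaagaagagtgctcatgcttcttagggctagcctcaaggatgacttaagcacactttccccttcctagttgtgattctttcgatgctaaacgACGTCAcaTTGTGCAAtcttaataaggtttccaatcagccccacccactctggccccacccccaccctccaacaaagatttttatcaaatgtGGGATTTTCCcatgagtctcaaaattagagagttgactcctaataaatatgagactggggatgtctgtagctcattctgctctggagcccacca
Lif: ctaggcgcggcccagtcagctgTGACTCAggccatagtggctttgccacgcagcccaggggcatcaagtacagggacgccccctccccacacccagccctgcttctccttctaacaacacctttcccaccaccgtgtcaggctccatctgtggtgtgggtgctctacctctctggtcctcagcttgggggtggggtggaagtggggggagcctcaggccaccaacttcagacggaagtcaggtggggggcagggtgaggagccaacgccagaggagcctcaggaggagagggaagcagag
Il11: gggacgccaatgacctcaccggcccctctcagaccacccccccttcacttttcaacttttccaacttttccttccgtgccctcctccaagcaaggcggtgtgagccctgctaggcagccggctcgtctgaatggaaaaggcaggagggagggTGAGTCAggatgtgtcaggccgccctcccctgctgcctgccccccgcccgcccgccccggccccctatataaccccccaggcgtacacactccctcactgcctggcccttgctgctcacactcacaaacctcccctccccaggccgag
Osmr: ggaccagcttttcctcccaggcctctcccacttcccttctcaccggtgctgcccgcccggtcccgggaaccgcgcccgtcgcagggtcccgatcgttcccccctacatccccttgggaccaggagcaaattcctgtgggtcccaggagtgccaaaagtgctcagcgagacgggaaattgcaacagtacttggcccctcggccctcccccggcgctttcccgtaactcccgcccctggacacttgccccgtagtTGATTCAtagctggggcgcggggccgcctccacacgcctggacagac
Il6ra: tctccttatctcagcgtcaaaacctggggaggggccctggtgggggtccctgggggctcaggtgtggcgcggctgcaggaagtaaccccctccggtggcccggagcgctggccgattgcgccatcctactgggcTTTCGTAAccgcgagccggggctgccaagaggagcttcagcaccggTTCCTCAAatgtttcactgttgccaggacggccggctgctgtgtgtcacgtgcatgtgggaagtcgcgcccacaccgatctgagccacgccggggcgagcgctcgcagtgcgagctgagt

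The AP-1 match began 249 bases before the start in Il6, 228 in Lif and 98 in Il11, and 3 bases after the start in Osmr, so that both ligand and receptor windows held one. A second window of Il11, the Il6st window and both Lifr windows held none of the motifs. Of 32851 windows of the same length in the table, 7.81% held an AP-1 match. Most windows shown were picked for this match, so its frequency among them is not set against that share. Il6 also held a match to the response element core 136 bases before the start (7.51% of windows), to C/EBP at 128 (40.7%) and to the NF-kB consensus at 44 (4.51%). The Il6ra window and the Stat3 window, which is not shown, each held 2 C/EBP matches (a motif in 40.7% of windows) and none of the other 4 motifs. A STAT match, present in 8.30% of windows, occurred in none of the members' windows. These matches describe letters only and show no binding.

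The receptor chains did not move together. Il6ra, the interleukin-6 receptor chain, was at 8.42 under PBS, 7.23 under intralipid and 8.23 with ANGPTL4 added. The intralipid array was the low one, by -1.19 (2.29-fold) against PBS, which places it just past the 2-fold threshold. Intralipid plus ANGPTL4 exceeded intralipid by 0.9994, just short of that threshold, and differed from PBS by -0.19. Il6ra was thus lowest on the array where Il6 was highest.

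Il6st, which encodes gp130, was at 9.66 under PBS, 9.29 under intralipid and 9.30 with ANGPTL4 added. Here the PBS array was the high one, and the arrays with lipid lay together. Its difference from PBS was -0.37 for intralipid and -0.36 for intralipid plus ANGPTL4. Each exceeded the robust SD of its pair of arrays, which is narrowed by differences of exactly 0. For intralipid against PBS, 20.4% of genes differed by more than Il6st in either direction, and for intralipid plus ANGPTL4 against PBS 6.82% did. Il6st was the only member past the floor whose level with ANGPTL4 lay closer to that of intralipid than to that of PBS.

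Osmr, the oncostatin M receptor chain, was at 5.32 (PBS), 5.67 (intralipid) and 5.36 (intralipid plus ANGPTL4) on the log2 scale. Like Osm it was highest under intralipid, with differences of 0.35 and -0.31 that fell short of 2-fold. The value with ANGPTL4 was shared by 45 other probe sets on that array. Lifr had a log2 value of 3.73 on each array, below the floor, and 71 other probe sets held the same 3 values. Whether the cultures carried transcripts of the LIF receptor was not detectable on these arrays.

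Log2 values of Stat3 were 9.15 under PBS, 9.82 under intralipid and 8.94 with ANGPTL4 added. The intralipid array was the high one, by 0.67 (1.59-fold) over PBS, and intralipid plus ANGPTL4 lay -0.88 from intralipid (1.84-fold) and -0.21 from PBS. None of these reached 2-fold. The arrays measured the transcript and not the phosphorylated protein.

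Across the family, intralipid against PBS gave 3 of 9 members higher by at least 2-fold (Osm, Il6 and Lif) and 1 lower (Il6ra). Over all 10049 genes compared, 2.51% were higher and 1.32% lower by the same rule. Osm ranked 6 and Stat3 430 among all genes ordered from the largest upward difference, and Il6ra ranked 67 from the largest downward one. No rank is given for Il6 and Lif, whose PBS values lay below the floor. They passed the floor only through the intralipid array, so the floor itself favoured counting them as different. With the floor at the 75th percentile, Osm and Il6ra were left.

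Intralipid plus ANGPTL4 against intralipid gave 0 members at least 2-fold higher and 3 lower, the same ligands as above, beside 2.53% and 2.30% of 10064 genes. Osm ranked 4 from the largest downward difference. With the floor at the 75th percentile, 1 ligand, Osm, was left. At a threshold of 1.5-fold 5 members were counted in place of 3, with Il6ra higher and Stat3 lower. Intralipid plus ANGPTL4 against PBS gave 0 members in either direction, beside 0.850% of 9995 genes higher and 0.0400% lower. Here 5 members could be compared, with differences from -0.36 (Il6st) to 0.04 (Osmr), as Il6 and Lif lay below the floor on both arrays. The comparisons share arrays in pairs, so their values for a gene are not independent.

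**Figure D2:**
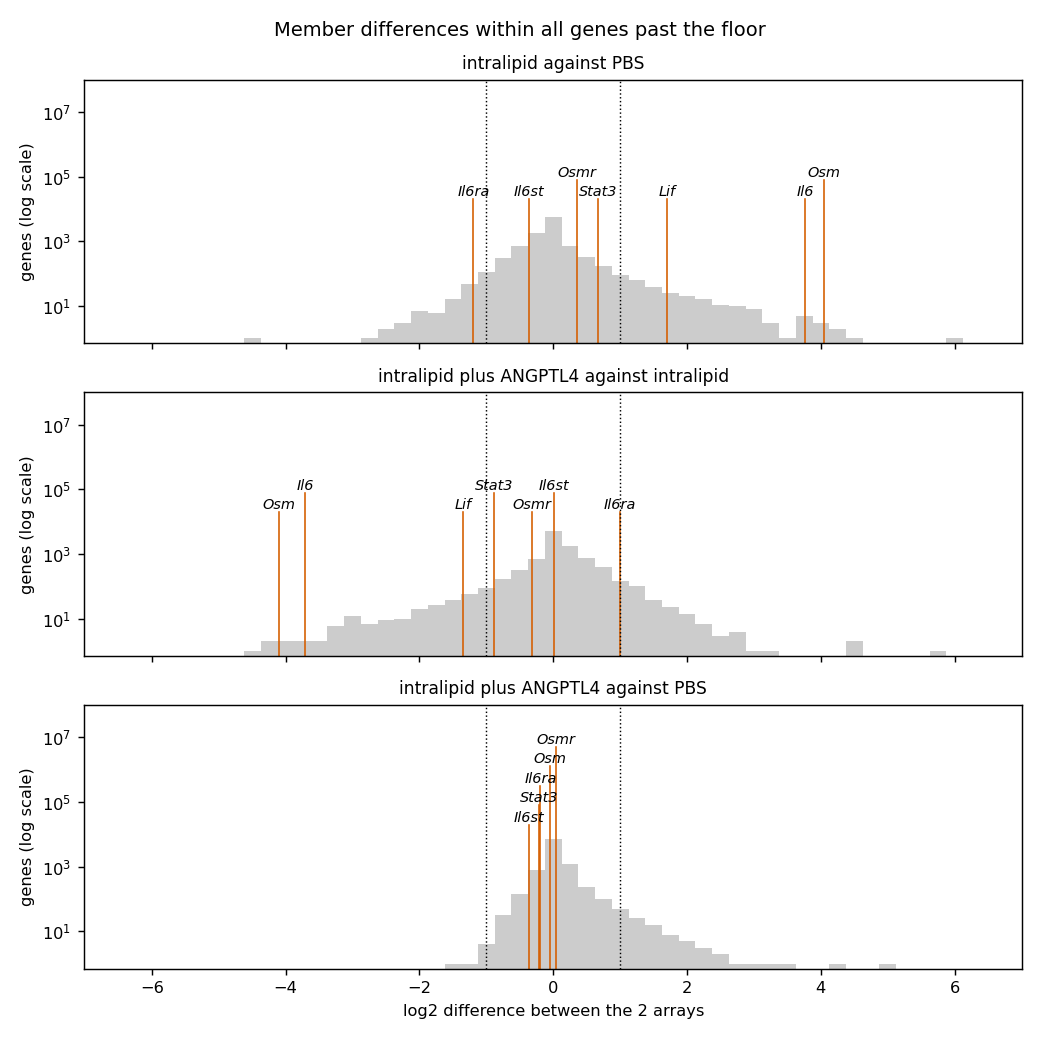
Number of genes (vertical axis, log scale) by log2 difference between 2 arrays (horizontal axis) for all genes past the floor, in 1 panel per comparison, with the members past the floor drawn as vertical lines whose height has no meaning and the 2-fold thresholds dotted. Osm and Il6 (whose lower values lie below the floor) lie in the outer right tail for intralipid against PBS and in the outer left tail for intralipid plus ANGPTL4 against intralipid, and all 5 members compared lie inside 2-fold for intralipid plus ANGPTL4 against PBS.

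The genes nearest to each member that was 2-fold apart between intralipid and PBS were found by Euclidean distance over 2 log2 differences, intralipid minus PBS and intralipid plus ANGPTL4 minus intralipid. With 3 arrays this is a description of pattern and nothing more. Nearest to Osm were Inhba, which encodes an activin subunit (4.24 and -4.00), the phosphatase gene Dusp10 (3.91 and -3.87), Lsmem1, Cytip and Il6 itself, at distances from 0.22 to 0.48. Of these, Lsmem1 and Il6 lay below the floor with PBS and with ANGPTL4, so their distances rest on values near background. For the same reason no nearest genes are given for Il6 and Lif. Nearest to Il6ra were Rnf145, Scgb1a1, Dna2, Fam78a and Pik3cd, a catalytic subunit of phosphoinositide 3-kinase (-1.18 and 1.09). Fam78a was below the floor on the intralipid array.

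Osm and Lif are adjacent protein-coding genes in the RefSeq table of GRCm38.p6, with 0 others between them, as are Osmr and Lifr. On the Osm side the neighbours were higher with intralipid, by far less than Osm (4.05). Castor1, which encodes an arginine sensor of the mTORC1 pathway, was at 6.14 (PBS), 7.20 (intralipid) and 6.09 (intralipid plus ANGPTL4) on the log2 scale, so that intralipid was 1.06 above PBS and ANGPTL4 -1.11 from intralipid. Tbc1d10a, the next gene, had values of 7.18, 8.13 and 7.46 in the same order. Its difference of 0.96 for intralipid over PBS fell short of 2-fold, while that of Castor1 reached it (2.51% over all genes). On the Lif side Hormad2 lay below the floor and Mtmr3 had a log2 value of 8.66 on each array, which is not read as an unaltered level. Around the receptor pair the pattern was another. Rictor had values of 6.85, 7.03 and 7.03, and Fyb, an adaptor of immune cells, had 8.66, 8.21 and 9.51, with ANGPTL4 1.30 above intralipid. Egflam and Gdnf lay below the floor.

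**Figure D3:**
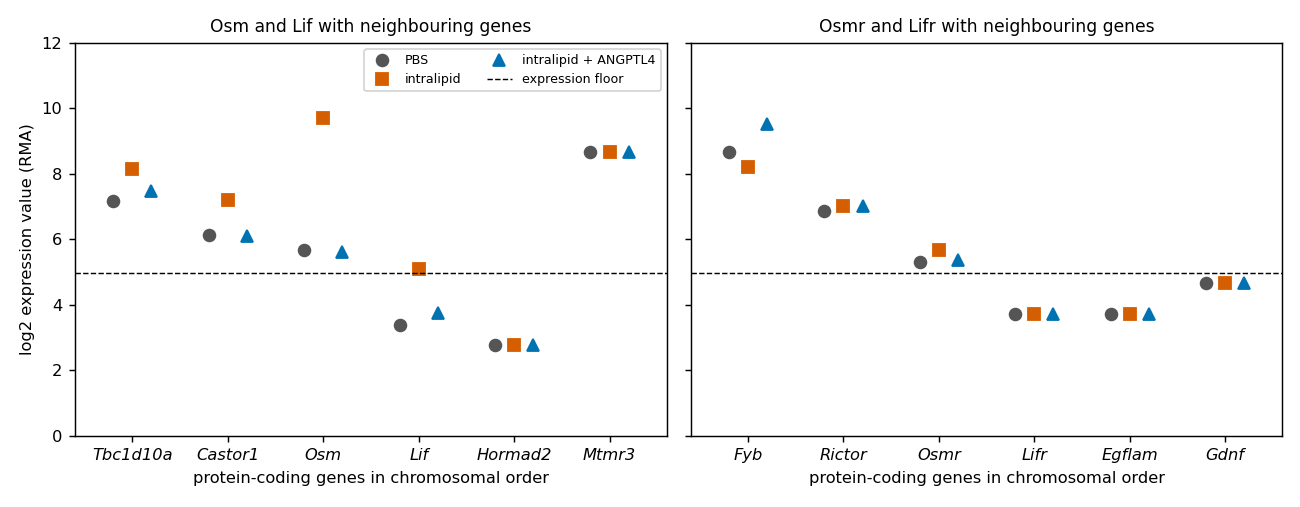
Log2 expression values (vertical axis) of Osm and Lif (left) and Osmr and Lifr (right) with 2 protein-coding neighbours on either side, in chromosomal order (horizontal axis, not to scale), on the PBS (circles), intralipid (squares) and intralipid plus ANGPTL4 (triangles) arrays, with the expression floor dashed. Tbc1d10a, Castor1, Osm and Lif are highest with intralipid, while Hormad2 and Mtmr3 have equal values on the arrays.

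The other genes of the pathway were followed in 8 lists holding 76 symbols, of which 71 were measured and 62 passed the floor. Intralipid against PBS gave 14 of the 62 at least 2-fold higher and 2 lower, beside the 2.51% and 1.32% of all genes, with a median difference of 0.01 against 0.00 over all genes. Intralipid plus ANGPTL4 against intralipid gave 4 higher and 9 lower, beside 2.53% and 2.30%, with a median of 0.00 against 0.00. Intralipid plus ANGPTL4 against PBS gave 2 higher, Irf1 (by 1.00, at the threshold) and Nfkbiz, and 0 lower, beside 0.850% and 0.0400%. The lists were chosen with earlier results of these data known, so their counts are a description and set no list apart.

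Other ligands and receptors of the family differed little in their deposited values. Ebi3, the shared subunit of interleukin-27, had log2 values of 6.65, 6.51 and 6.95 (PBS, intralipid, intralipid plus ANGPTL4, the order used from here on). Il27 had 5.22 on each array and Clcf1 had 5.04, 5.21 and 5.04. Of the 3 ligands past the floor, 0 were 2-fold apart, beside 3.83% of all genes for intralipid against PBS. Equal values on all 3 arrays, as for Il27, were held by 25.1% of genes past the floor on at least 1 array. They are not read as an unaltered level, here or in the lists below. Of the receptor chains Il27ra alone passed the floor, with 5.86, 5.86 and 5.92. Cntfr and Il31ra stayed below it on all arrays.

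Among 11 kinases, adaptors and STATs, 0 were 2-fold apart between intralipid and PBS (3.83% over all genes in either direction). Jak2, a kinase that binds gp130, had 8.33 with PBS, 7.87 with intralipid and 9.12 with ANGPTL4, a difference of 1.25 for ANGPTL4 over intralipid. It was highest with ANGPTL4 and lowest with intralipid, unlike Osm, Il6 and Lif. Jak1 had 10.41, 10.40 and 10.40, and the adaptor Grb2 8.86, 8.82 and 8.73. Gab2, an adaptor that links receptors to phosphoinositide 3-kinase, had 8.35, 9.10 and 8.30, highest with intralipid and short of 2-fold.

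Of 7 signal inhibitors past the floor, 1 was 2-fold apart. It was lower with intralipid than with PBS (1.32% over all genes) and higher with ANGPTL4 than with intralipid (2.53%). Ptpn6, the phosphatase SHP-1, had 9.89 with PBS, 8.23 with intralipid and 10.20 with ANGPTL4. It was 3.15-fold lower with intralipid than with PBS and 3.91-fold higher with ANGPTL4 than with intralipid, the reverse of the ligands. The phosphatases Ptpn1 (9.63, 9.29 and 9.73) and Ptpn2 (6.75, 7.28 and 6.92) and the STAT inhibitor Pias1 (8.65 on each array) differed by less than 2-fold. Socs3, the feedback inhibitor of gp130 and a STAT3 target, was picked after its values were seen. It had 6.02, 6.95 and 6.96, a difference of 0.92 with intralipid and 0.94 with ANGPTL4 over PBS, so that both lipid arrays lay together, but its second probe set differed by at most 0.04.

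Proteases that release soluble interleukin-6 receptor from the cell surface included 1 gene that was 2-fold apart, higher with ANGPTL4 than with intralipid (2.53% over all genes). Adam17 had 10.59 with PBS, 9.72 with intralipid and 11.29 with ANGPTL4, a difference of -0.87 for intralipid over PBS and 1.57 for ANGPTL4 over intralipid. Adam10 had 10.20, 9.98 and 10.16. Rhbdf2, which encodes the ADAM17 partner iRhom2, had 7.91, 7.97 and 8.43, and the protease inhibitor gene Timp3 had 7.55, 7.46 and 7.58. Adam17 and Jak2 thus shared the order of the arrays with Ptpn6.

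The list of STAT3 targets had a median difference of 0.60 for intralipid over PBS, with 7 of 18 genes at least 2-fold higher and 1 lower (2.51% and 1.32% over all genes). Nfil3, a repressor of the bZIP class, was 2.56 higher, Junb 2.43, the kinase Pim1 2.07, Cebpb 1.82, Myc 1.59, the interleukin-1 receptor antagonist Il1rn 1.17 and Hif1a 1.15. Irf1, an interferon-response factor, was -1.11 from PBS. For ANGPTL4 over intralipid the median was -0.57, with Nfil3, Pim1, Junb and Myc at least 2-fold lower and Irf1 2.12 higher. Over all genes, 2.30% were lower and 2.53% higher by the same rule. Mcl1 (11.53, 12.37 and 11.81), Il4ra (9.11 on each array) and Bcl6 (8.39, 8.50 and 8.39) were within 2-fold. Junb and Myc, like most of these targets, are also induced by other pathways, and Junb and Cebpb stand in the next list too.

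Transcription factors that act on cytokine promoters had a median difference of 1.15 for intralipid over PBS, with 7 of 11 genes at least 2-fold higher (2.51% over all genes). The AP-1 subunits Fosb (16.6-fold against the floor), Junb (2.43), Fos (2.38) and Jun (1.53) were among them, besides Cebpb (1.82), Nfkbiz (1.15) and Egr1 (1.03). Fosb lay below the floor with PBS and with ANGPTL4, and against the floor intralipid was 16.7-fold above the latter. For ANGPTL4 over intralipid 5 were at least 2-fold lower (2.30% over all genes), the 4 AP-1 subunits and Egr1, and the median was -0.95. Nfkbiz, which encodes a nuclear cofactor of NF-kB for Il6 transcription, had 5.54 with PBS, 6.69 with intralipid and 6.87 with ANGPTL4. It stayed 1.33 above PBS with ANGPTL4. Its part in the level of Il6 was not tested. Atf3 (11.26, 11.63 and 11.20), Rel (8.61, 8.81 and 8.80) and Creb1 (7.97, 7.97 and 8.08) were within 2-fold.

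Of 9 genes for proteins that set cytokine mRNA stability, 2 were at least 2-fold higher with intralipid than with PBS (2.51% over all genes). Zfp36, which encodes the destabilising protein tristetraprolin, had 8.404, 9.86 and 8.42. Zc3h12a, which encodes the endonuclease Regnase-1 that cleaves Il6 mRNA, had 6.98, 8.44 and 7.85, so that 0.87 over PBS was left with ANGPTL4. Hnrnpd (9.58, 9.60 and 9.69), Elavl1 (8.66, 8.64 and 8.77) and Rc3h1 (8.38, 8.01 and 8.39) were within 2-fold.

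**Figure D4:**
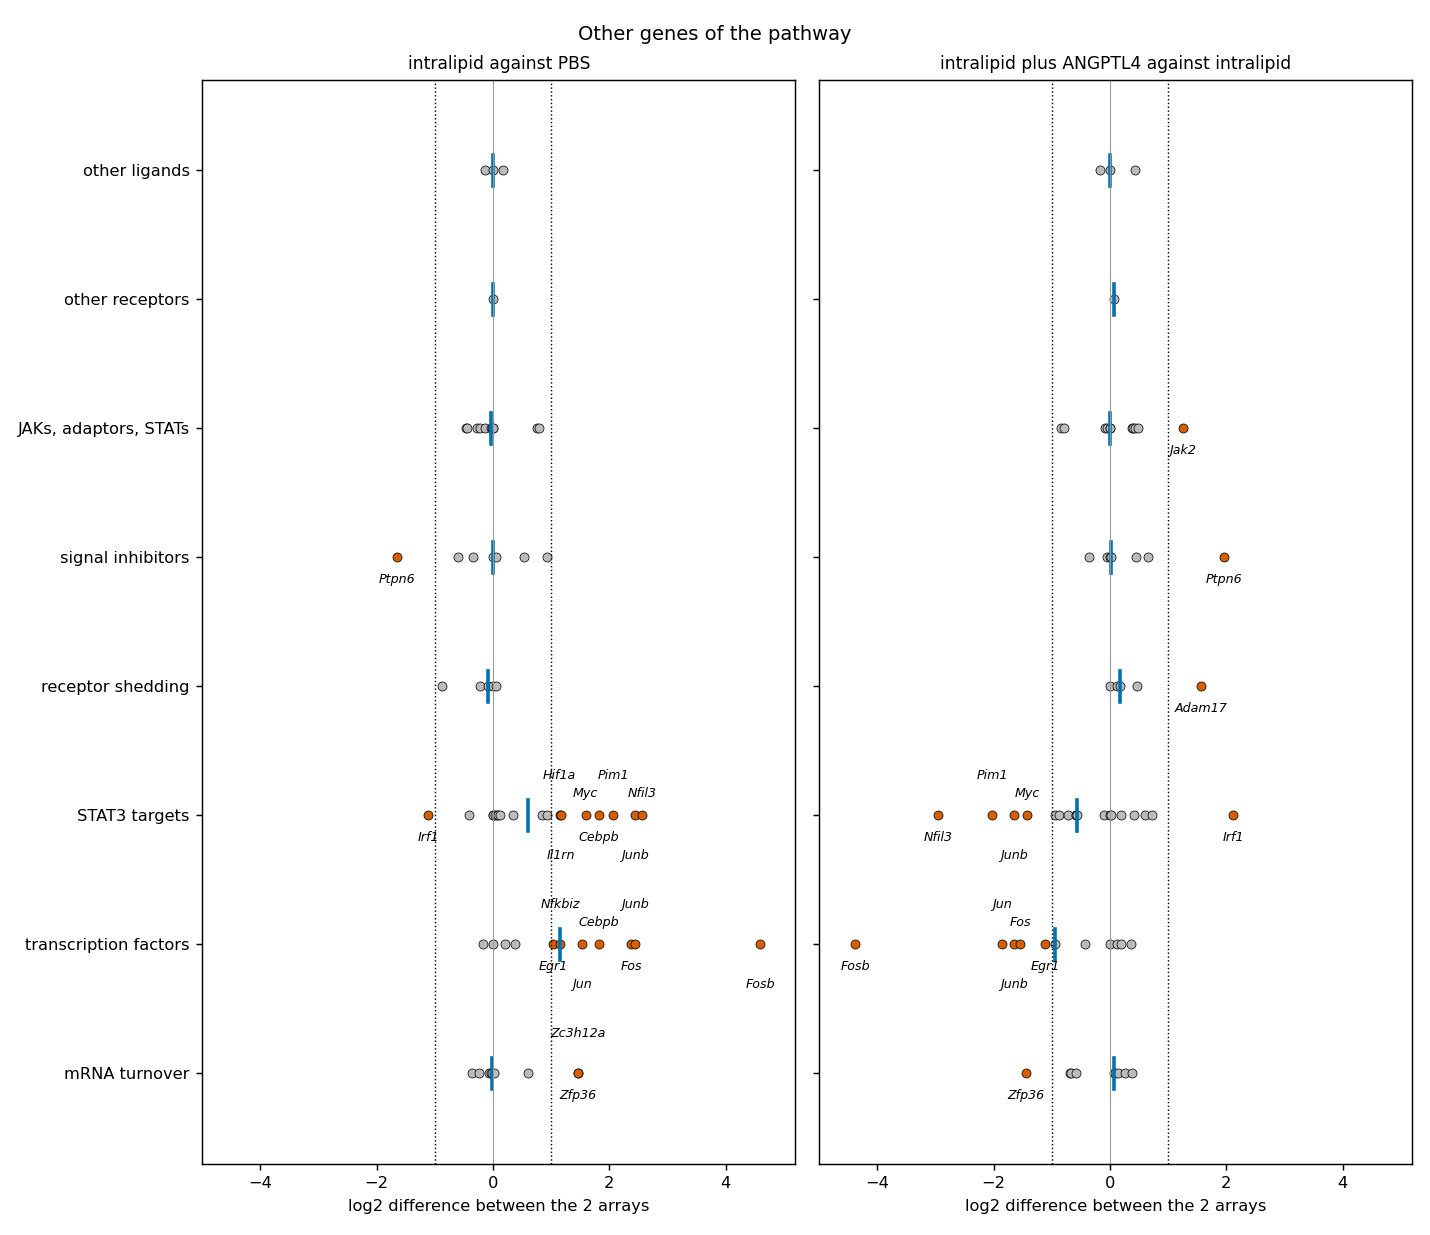
Log2 difference (horizontal axis) of each gene past the floor in 8 lists (vertical axis) for intralipid against PBS (left) and intralipid plus ANGPTL4 against intralipid (right), 1 point per gene, with genes 2-fold apart in orange and named, the list median as a blue bar and the 2-fold thresholds dotted. STAT3 targets and transcription factors lie mainly to the right on the left panel and to the left on the right panel, while Ptpn6 and Irf1 lie the other way round.

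Cell type markers were read beside these results, since several members are also expressed by stromal cells. Macrophage markers passed the floor in 11 of 11 measured genes, with summed linear values of 32319, 33613 and 33383 for PBS, intralipid and intralipid plus ANGPTL4. Such sums follow the highest probe sets, here Lyz2 (12.91 on each array), Cd68 and Lgals3, and are no measure of cell content. For the fibroblast and mesothelial lists they also take in markers below the floor. Within them Cd14, a co-receptor for endotoxin, was 2.10 higher with intralipid than with PBS. It was the only one 2-fold apart there (over all genes 2.51% were higher and 1.32% lower), while 5 of the 11 were above PBS and 5 below. With ANGPTL4 added, Cd14 was still 1.26 above PBS. Fcgr1, an Fc receptor, was -0.48 from PBS with intralipid and -1.01 with ANGPTL4. With ANGPTL4, Cd14 was thus at least 2-fold above PBS (0.850% over all genes) and Fcgr1 at least 2-fold below it (0.0400%). Fibroblast markers passed in 5 of 8 (Col1a1, Col1a2, Col3a1, Dcn and Pdgfra), with sums of 2347, 2335 and 2322 and no difference over 0.28. Of these, Col3a1 and Dcn had equal values on all arrays, and Col1a1 and Col1a2 had equal values with PBS and with ANGPTL4. The small differences are therefore not read as an unaltered level. Mesothelial markers passed in 2 of 8 (Wt1 and Krt8), with sums of 204, 195.3 and 177, and Msln stayed below the floor. Neutrophil markers passed in 1 of 10 (S100a8), and B cell, T and NK cell, and mast cell markers in 0 of 4, 0 of 8 and 0 of 7. In such bulk RNA, fewer cells of a type and less RNA per cell cannot be told apart, and the part of other cells in the members' levels was not tested.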

How the data were processed

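Affymetrix arrays measured RNA pooled from 3 samples in each of 3 groups, 1 array per group. Per the submitters' processing notes, the authors made the deposited log2 value of each probe set with RMA, which corrects background, normalizes between arrays and summarises probes. Its version, the chip definition and the genome build were not given in the sources used here. Values were used as deposited, for 35556 probe sets. Gene names came from GEO's platform annotation, with 21789 probe sets of 1 symbol, 1621 of several and 12146 of none. Where a gene had several probe sets (999 genes), that of highest mean stood for it. All 9 members matched RefSeq by gene identifier. Mock pre-incubation of the other groups is not mentioned in the labels.

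The members and lists were chosen with earlier results of these data known. Named were all members, genes of the lists 2-fold apart in any comparison with the 3 of highest mean level besides, the 5 nearest genes of Osm and Il6ra (those of Il6 and Lif are left out, as their levels lay below the floor on 2 arrays) and 2 chromosomal neighbours. The code for the calls was run on simulated data with small random noise and with changes placed only in genes well past the floor. That check covers neither calls near the floor nor the spread between cultures. Tools were Python 3.11.15, pandas 2.3.3 and, for alternatives, limma 3.58.1 in R 4.3.3. The alternatives covered the fold threshold, the floor, centring, normalization and the choice of probe sets. The number of arrays limits the precision.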

Additional observations from a re-analysis of the deposited data

How the results depend on the processing

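All 135 member differences recomputed with median centring, cyclic loess, quantile normalization, the mean over probe sets or probe sets of several symbols moved by less than 0.10 on the log2 scale (the robust SD of the least different pair of arrays), by at most 0.06. Part of this was fixed in advance. All 9 members had 1 probe set, so the mean over probe sets could not move them, and probe sets of several symbols left every member value as reported. Median centring shifts all genes of an array alike. No difference counted as 2-fold apart changed sign. That of Il6st for intralipid plus ANGPTL4 against intralipid, 0.01 as reported, was -0.01 with cyclic loess and -0.02 with quantile normalization, and those of Il11 and Lifr, 0 as reported, moved off 0 under centring and both normalizations. The fold threshold and the floor changed the counts by construction. At 1.5-fold, intralipid plus ANGPTL4 against intralipid had 5 members apart, 1 of them higher. At 3-fold, 0 members were lower with intralipid than with PBS. With the floor at the 75th percentile, intralipid against PBS had 2 members apart, 1 of them higher, and intralipid plus ANGPTL4 against intralipid had 1 apart, which was lower. Without a floor, no count of members changed.

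For the other pathway genes, whose alternatives were added after seeing the data, the counts were 16, 13 and 2 for intralipid against PBS, intralipid plus ANGPTL4 against intralipid and intralipid plus ANGPTL4 against PBS. At 1.5-fold the latter counts became 24 and 12, and at 3-fold all became 8, 7 and 0. The 2 genes of the last comparison fell to 1 with the higher floor, median centring, cyclic loess, quantile normalization or the mean over probe sets. Over all genes, the share apart in either direction in the 3 comparisons was 3.83%, 4.83% and 0.890%. It was 10.6%, 13.2% and 2.90% at 1.5-fold, 1.36%, 1.60% and 0.25% at 3-fold, 1.97%, 2.50% and 0.471% without a floor, and 6.09%, 7.42% and 1.37% with the higher floor. No paired analysis was possible because each group had 1 array. No replicate could be left out for the same reason.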

Other observations

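Many probe sets held exactly the value of another probe set on the same array: 54.8% under PBS, 52.3% under intralipid and 54.2% with ANGPTL4 added. Below the floor the shares were 71.99%, 71.2% and 71.7%, and at or past it 32.5%, 28.0% and 32.0%. Of the members, Osm, Il6ra, Il6st and Stat3 had values of their own on all 3 arrays. Among genes past the floor on at least 1 array, 25.1% had the same value on all 3.

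Of the pathway genes, 4 had more than 1 probe set, and they differed in what they showed. Irf1 had log2 values of 6.69, 5.58 and 7.69 on the PBS, intralipid and intralipid plus ANGPTL4 arrays by probe set 10376060, and 4.27 on each array by probe set 10385870. Socs3 had 6.02, 6.95 and 6.96 by probe set 10393449, and 5.13, 5.17 and 5.17 by 10383010. Ptpn2 had 6.75, 7.28 and 6.92 by probe set 10459590, and 5.25 on each array by 10459602. Rc3h1 was lowest with intralipid by both of its probe sets, with differences of -0.37 and -0.52 from PBS.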
